A study of Mus musculus with 12 samples.

Results

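Macrophage and leukocyte genes are described here across dissected structures of the embryonic mouse kidney. The set holds 7 genes (Ctss, Laptm5, Csf1r, Lsp1, Tyrobp, Fcer1g and Cd68), chosen by name with earlier results of these data known. Every probe set annotated to exactly 1 of these symbols was kept. That gave 12 of the 12422 probe sets on the array, which cover 8251 named genes in all. Laptm5, Csf1r, Lsp1, Fcer1g and Cd68 each had 2 probe sets, and Ctss and Tyrobp had 1 each. Expression was measured on 12 Affymetrix MG_U74Av2 arrays, 3 in each of 4 groups, from wild-type Swiss Webster embryos at E14.5 (Theiler stage 22). The groups were S-shaped bodies amplified 1 at a time (replicates 3, 4 and 5), S-shaped bodies in pools of 20 (replicates 1, 2 and 3), renal vesicles in pools of 20 (replicates 2, 3 and 4) and unpooled collecting duct (replicates 1, 2 and 3). The renal vesicle is the first epithelial stage of the nephron, the S-shaped body is a later stage into which the first glomerular vessels grow, and the collecting duct derives from the ureteric bud. All structures were dissected by their shape, the RNA of all 4 groups went through 2 rounds of T7 amplification, and pool size differs between the pooled structures and collecting duct, so that pooling and structure cannot be told apart there. The labels call the samples biological replicates without naming the embryo of each, so a p-value here covers only the spread among the arrays, and 3 arrays a group limit the precision.

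Macrophages are present in the embryonic kidney before circulating monocytes are made in the bone marrow, and they are known there for clearing dying cells. The set spans their main functions. Csf1r is the receptor through which the growth factor Csf1 keeps macrophages alive, Tyrobp (DAP12) and Fcer1g are membrane adaptors that pass signals from immune receptors to the kinase Syk through ITAM motifs, and Ctss, Laptm5 and Cd68 belong to the lysosome. Lsp1 is an actin-binding protein of leukocytes that is also made by endothelial cells. In bulk RNA of this kind, fewer cells of a type and less RNA per cell cannot be told apart.

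The transcription factor Spi1 drives many myeloid genes through sites with a GAGGAA core, so promoters were searched for these letters on both strands. The RefSeq promoter table (build GRCm38.p6) held 4 of the 7 genes, Ctss, Laptm5, Fcer1g and Cd68, and the 250 bases before the start were used. The letters stood in 3 of these 4 (Ctss, Laptm5 and Cd68), against 23.3% of the 32851 promoters in the table, and were not in the Fcer1g window. The promoters of Ctss and Laptm5 are shown because these genes were higher in pooled S-shaped bodies than in renal vesicles. That of Ctss lies at chr3:95526536-95526785 on the plus strand, with the match in capitals beginning 164 bases before the start. That of Laptm5 lies at chr4:130913066-130913315 on the plus strand, with the match on the opposite strand (TTCCTC, in capitals) 38 bases before the start. A match of this kind describes the letters only.
Ctss: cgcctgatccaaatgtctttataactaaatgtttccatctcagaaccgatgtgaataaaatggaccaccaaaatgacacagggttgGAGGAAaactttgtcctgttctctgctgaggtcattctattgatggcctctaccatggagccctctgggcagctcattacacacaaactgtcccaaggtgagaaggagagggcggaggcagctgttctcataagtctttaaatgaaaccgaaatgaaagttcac
Laptm5: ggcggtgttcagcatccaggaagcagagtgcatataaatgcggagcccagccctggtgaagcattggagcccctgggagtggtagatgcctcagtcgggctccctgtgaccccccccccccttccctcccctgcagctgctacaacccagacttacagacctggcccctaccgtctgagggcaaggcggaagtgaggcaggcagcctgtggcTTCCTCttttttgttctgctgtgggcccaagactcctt

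The deposited intensities were on different scales. Array medians ran between 3.48 and 9.48 in single S-shaped bodies, 37.2 and 42.5 in the pooled S-shaped bodies, 14.3 and 20.4 in renal vesicles, and 47.6 and 61.9 in collecting duct. The arrays were therefore quantile normalized, and a level below is the log2 of the normalized intensity plus 7.22, which puts a signal of 0 or less at 2.85. A group whose arrays all sit at 2.85 adds no spread to a fit, so standard errors and p-values there can come out too small. The background of an array was taken from its negative values: if the lowest 5% lay under -x, a probe set needed a deposited intensity over x to count as above background. Correlations between arrays of a group were 0.912 to 0.939 in single S-shaped bodies and 0.955 to 0.978 in the other groups, so the single structures were the most variable. Calls are at a limma adjusted p under 0.05 over 9316 probe sets, and log2 changes carry their standard error. Markers of the named structures followed the labels in part. In renal vesicles against collecting duct, 4 of 4 nephron markers were higher, and 4 of 5 collecting duct markers were lower. In pooled S-shaped bodies against collecting duct, 2 of 4 nephron markers were higher and 1 was lower (Wnt4, -3.28 ± 0.27, limma adjusted p = 5.64e-06). There 4 of 5 collecting duct markers were lower and 0 higher. Krt19, a keratin of the ureteric epithelium, was above background on none of the 9 nephron arrays and had levels of 11.51, 11.16 and 11.27 in collecting duct. Wt1, a transcription factor of the early nephron, ranged between 7.87 and 9.98 on those 9 arrays and between 4.69 and 4.93 in collecting duct.

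The genes fell into 3 patterns. Ctss and, by its unique probe set, Laptm5 exceeded background in S-shaped bodies alone, Laptm5 in the pools only. Csf1r exceeded it in every group, with its highest levels by 104354_at in S-shaped bodies. Lsp1 was high in all nephron structures, and Tyrobp, Fcer1g and Cd68 were at or near background everywhere. Other markers of macrophages and leukocytes were divided. Ptprc, Adgre1, Itgam and Aif1 were below background on every array, while Cd14, Cx3cr1, Fcgr1, Cd52 and Rac2 were above it on 12 of 12. The name of the set is therefore not settled by its markers as a cell type, and the genes are described one by one. At least 1 probe set was above background on all 3 arrays for 3 of the 7 genes in single S-shaped bodies (Laptm5, Csf1r and Lsp1), 4 in pooled S-shaped bodies (those and Ctss), 2 in renal vesicles (Csf1r and Lsp1) and 2 in collecting duct (Laptm5 and Csf1r). Of the 12 member probe sets, 3, 7, 3 and 2 were above background on all 3 arrays in the same order of groups. Over all probe sets these shares were 42.5%, 51.0%, 51.6% and 50.8%. By the probe set of highest mean alone, the counts were 3, 4, 1 and 1 genes. Csf1r in renal vesicles and collecting duct was counted through 161832_r_at, and Laptm5 in collecting duct through 161819_f_at. Tyrobp rose above background on 2 of the 12 arrays, and Fcer1g and Cd68 on 0 of 12. The background level was chosen after seeing the data. With it set from the lowest 2.5% of values, 2, 4, 1 and 1 genes had at least 1 such probe set, in the same order of groups. From the lowest 10% they were 3, 4, 2 and 2. Over all probe sets the shares were 35.8%, 44.3%, 45.2% and 44.6% with the former. With the latter they were 50.3%, 60.7%, 59.4% and 59.8%.

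**Figure D1:**
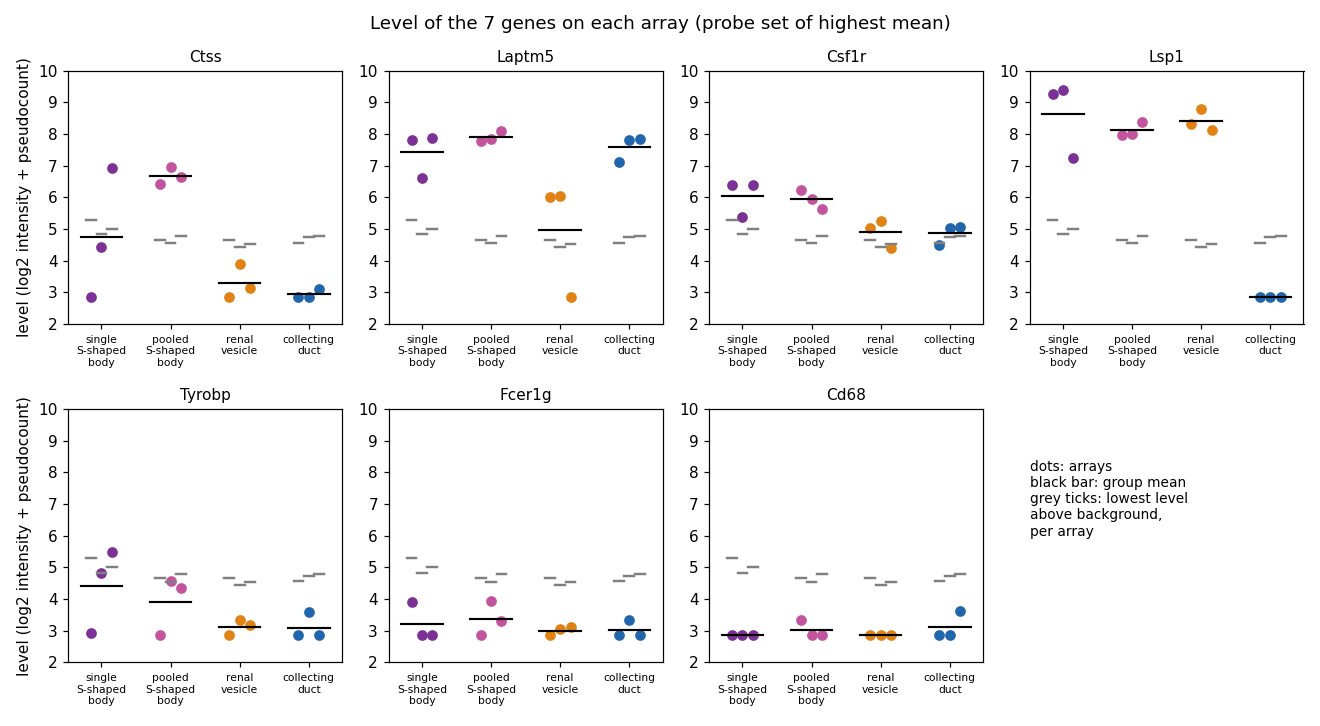
Level of each of the 7 genes on each array, by its probe set of highest mean (log2 of normalized intensity plus 7.22, 3 arrays a group). Dots are arrays, black bars are group means and grey ticks mark the lowest level above background on that array. Ctss stood above background on all 3 pooled S-shaped body arrays and on 1 single S-shaped body array, Lsp1 on all arrays but those of collecting duct, and Fcer1g and Cd68 on none.

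Ctss encodes cathepsin S, a lysosomal protease that antigen-presenting cells use to process the invariant chain. Its 1 probe set had deposited intensities of -0.698, 3.79 and 38.4 in single S-shaped bodies, 95.9, 164 and 132 in the pooled S-shaped bodies, -0.217, 5.71 and 0.972 in renal vesicles, and -4.65, -4.44 and 2.51 in collecting duct. The normalized levels were 2.85, 4.43 and 6.93 in single S-shaped bodies, 6.42, 6.97 and 6.63 in the pooled S-shaped bodies, 2.85, 3.90 and 3.14 in renal vesicles, and 2.85, 2.85 and 3.12 in collecting duct. The 3 pooled S-shaped body arrays lay above every array of renal vesicle and collecting duct, and the 3 single structures covered nearly the whole range of the array set. Ctss was at least 4.37-fold higher in pooled S-shaped bodies than in renal vesicles (log2 change 3.38 ± 0.32, limma adjusted p = 3.13e-05) and at least 3.93-fold higher than in collecting duct (3.73 ± 0.32, limma adjusted p = 7.73e-06). These are bounds, set at the lowest level above background on the dim arrays, since Ctss was not above background on any of those. The fitted changes depend on the constant added before the log, and with the median of all values in its place they were 1.96 and 2.08.

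Single S-shaped bodies differed among themselves in Ctss. Replicate 5 alone was above background, at a level of 6.93, within the range of the pools. The group mean was 4.74 ± 2.05 in single S-shaped bodies and 6.68 ± 0.28 in pooled S-shaped bodies (SD, n = 3 each), and the difference did not pass (-1.94 ± 0.88, limma adjusted p = 0.301). Ctss was at least 1.02-fold higher in single S-shaped bodies than in collecting duct, which did not pass either (limma adjusted p = 0.156). Without single S-shaped body replicate 3 it passed, at least 1.97-fold higher (limma adjusted p = 0.0214), and without replicate 5 no single structure was above background. Renal vesicles and collecting duct were both below background for Ctss, so no fold is given (limma adjusted p = 0.471).

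Laptm5 encodes a lysosomal membrane protein of blood cells that limits antigen receptor signalling in lymphocytes. Its probe sets gave different pictures. The unique one, 100012_at, had levels of 2.85, 2.85 and 3.43 in single S-shaped bodies, 6.0, 4.76 and 5.71 in pooled S-shaped bodies, and 2.85 on all 6 arrays of renal vesicle and collecting duct. It was above background on the 3 pooled S-shaped body arrays and on no other. By this probe set Laptm5 was at least 1.92-fold higher in pooled S-shaped bodies than in renal vesicles (2.64 ± 0.34, limma adjusted p = 0.00018) and at least 1.73-fold higher than in collecting duct (2.64 ± 0.34, limma adjusted p = 0.000125). It was at least 1.36-fold lower in single than in pooled S-shaped bodies with no overlap, which did not pass (limma adjusted p = 0.0651). In the fit of 9 arrays 100012_at passed the filter on dim probe sets through the pooled S-shaped bodies alone. Its calls there therefore depend on the group where it was high. It was under the filter in single S-shaped bodies against collecting duct. With the median as the added constant both changes of 2.64 came to 1.23. The difference of single from pooled S-shaped bodies passed on the same arrays with scaling to the 75th percentile (0.0461) or to the trimmed mean (0.0477), and with all 12 arrays in 1 fit (0.00325).

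The other Laptm5 probe set, 161819_f_at, carries the suffix that Affymetrix gives to sets whose probes also match other members of a sequence family. Its levels were 7.80, 6.62 and 7.87 in single S-shaped bodies, 7.79, 7.86 and 8.11 in the pooled S-shaped bodies, 6.01, 6.04 and 2.85 in renal vesicles, and 7.11, 7.82 and 7.85 in collecting duct. The renal vesicles lay below all other arrays, and collecting duct overlapped the S-shaped bodies, where the unique probe set showed no signal in collecting duct. It was lower in renal vesicles than in collecting duct (-2.63 ± 0.68, limma adjusted p = 0.017) and higher in pooled S-shaped bodies than in renal vesicles (2.95 ± 0.68, limma adjusted p = 0.00579). Without renal vesicle replicate 4 they were -1.57 (limma adjusted p = 0.00217) and 1.89 (limma adjusted p = 0.000529). The call against collecting duct was lost without collecting duct replicate 2 (limma adjusted p = 0.0583) or 3 (0.0561) and with no filter on dim probe sets (0.083). Pooled S-shaped bodies against collecting duct gave 0.32 ± 0.68 (limma adjusted p = 0.746), single against pooled S-shaped bodies -0.49 ± 0.34 (0.486) and single S-shaped bodies against collecting duct -0.17 ± 0.37 (0.767). Across the 12 arrays the correlation between these probe sets was 0.40. Higher Laptm5 in pooled S-shaped bodies than in renal vesicles was the change that both probe sets gave.

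Cd68, a lysosomal glycoprotein widely used to stain macrophages, was above background on 0 of 12 arrays by either probe set. Its deposited intensity by 103016_s_at ranged between -27.2 and 8.83, both in collecting duct, and by 162173_i_at between -17.6 and -0.351. The mean of these probe sets stood at the 9.95 and 5.42 percentile of all probe sets, under the filter, and with no filter neither was called in any of the 5 comparisons.

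Csf1r had its clearest signal in S-shaped bodies, by probe set 104354_at. Deposited intensities were 8.31, 8.81 and 25.1 in single S-shaped bodies, 82.7, 75.5 and 60.4 in the pooled S-shaped bodies, 12.6, 22.1 and 7.26 in renal vesicles, and 32.0, 42.3 and 43.1 in collecting duct. After normalization the levels were 6.38, 5.39 and 6.38 in single S-shaped bodies, 6.22, 5.96 and 5.63 in the pooled S-shaped bodies, 5.04, 5.26 and 4.39 in renal vesicles, and 4.51, 5.04 and 5.05 in collecting duct. Every S-shaped body array lay above every renal vesicle and collecting duct array, though those of renal vesicle and collecting duct were close to the background level. Csf1r was higher in pooled S-shaped bodies than in collecting duct by 1.08 ± 0.30 (limma adjusted p = 0.0166) and than in renal vesicles by 1.04 ± 0.30 (limma adjusted p = 0.0202). In single S-shaped bodies it was higher than in collecting duct by 1.19 ± 0.39 (limma adjusted p = 0.0447). Single against pooled S-shaped bodies (0.11 ± 0.37, limma adjusted p = 0.91) and renal vesicles against collecting duct (0.03 ± 0.30, limma adjusted p = 0.952) did not differ beyond the spread.

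These Csf1r calls rested on few arrays. With the median as the added constant, the changes of pooled S-shaped bodies were 0.71 against collecting duct and 0.68 against renal vesicles. Pooled S-shaped bodies against collecting duct lost its call without pooled S-shaped body replicate 1 (limma adjusted p = 0.0665) or collecting duct replicate 1 (0.0672). Pooled S-shaped bodies against renal vesicles lost it without renal vesicle replicate 4 (limma adjusted p = 0.0704) and without pooled S-shaped body replicate 1 (0.0773) or 2 (0.0555). Single S-shaped bodies against collecting duct lost it without collecting duct replicate 1, 2 or 3 (limma adjusted p = 0.161, 0.0989 and 0.0975), without single S-shaped body replicate 3 (0.0849) or 5 (0.109), and with no filter (0.0936). The second Csf1r probe set, 161832_r_at, chosen under relaxed probe rules as its suffix says, had levels between 4.59 and 5.26 on all 12 arrays. None of the 5 comparisons passed there, with limma adjusted p between 0.537 and 0.925, and its correlation with the first over the 12 arrays was -0.10.

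**Figure D2:**
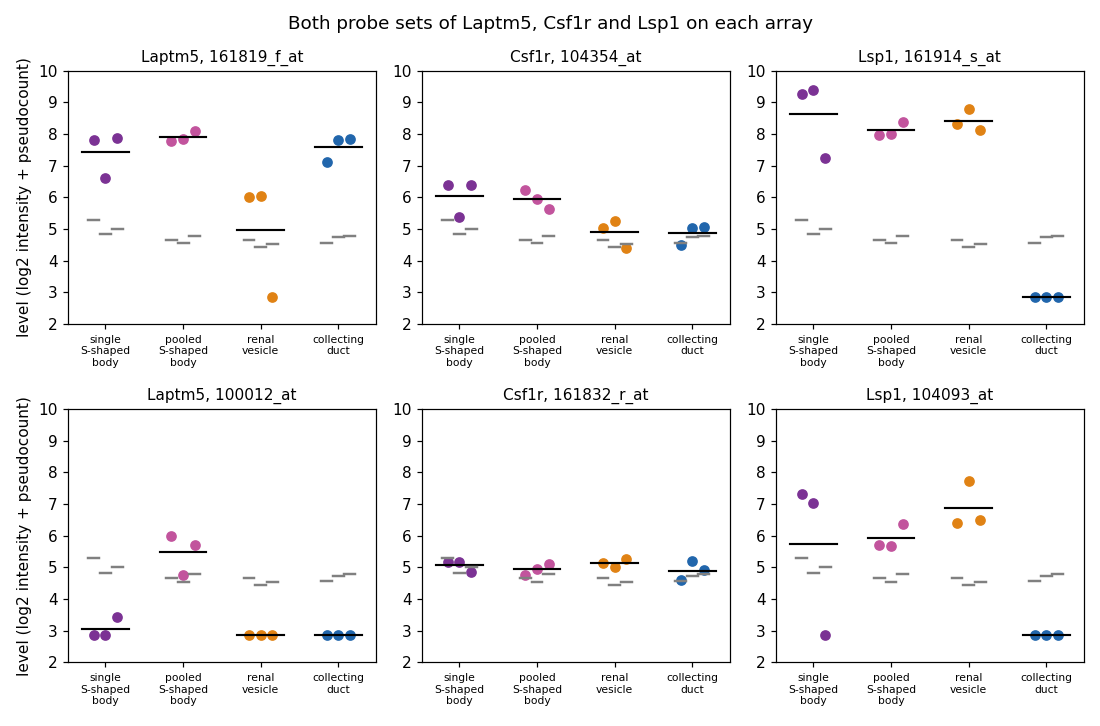
Levels on each array by both probe sets of Laptm5, Csf1r and Lsp1 (log2 of normalized intensity plus 7.22, with 3 arrays a group, black bars for means and grey ticks for the lowest level above background). Those of Lsp1 followed each other, while Laptm5 161819_f_at was high in collecting duct, where 100012_at was at 2.85 on each array, and Csf1r 161832_r_at stayed between 4.59 and 5.26 throughout.

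Tyrobp pairs with many activating receptors of macrophages and natural killer cells. Its levels were 2.92, 4.81 and 5.49 in single S-shaped bodies, 2.85, 4.56 and 4.34 in the pooled S-shaped bodies, 2.85, 3.35 and 3.18 in renal vesicles, and 2.85, 3.59 and 2.85 in collecting duct. Only single S-shaped body replicate 5 and pooled S-shaped body replicate 2 exceeded background. Tyrobp fell under the filter in the fit of 9 arrays and was tested in the fits of 6. Single S-shaped bodies against pooled S-shaped bodies gave 0.49 ± 0.74 (limma adjusted p = 0.768) and that against collecting duct, where no array was above background, did not pass (limma adjusted p = 0.157). That against collecting duct passed without single S-shaped body replicate 3 (limma adjusted p = 0.00872). Fcer1g, the common gamma chain of Fc receptors, had deposited intensities between -1.40 and 10.6 by 160692_at and between -56.2 and -12.5 by 162181_f_at. It was under the filter in every fit, and with no filter neither it nor Tyrobp was called in any comparison.

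Lsp1 had a pattern of its own, high in every nephron structure and without signal in collecting duct. Probe set 161914_s_at had deposited intensities of 60.9, 153 and 48.1 in single S-shaped bodies, 289, 342 and 461 in the pooled S-shaped bodies, 180, 329 and 155 in renal vesicles, and -33.5, -15.5 and -16.0 in collecting duct. The levels were 9.28, 9.40 and 7.25 in single S-shaped bodies, 7.96, 8.0 and 8.38 in the pooled S-shaped bodies, 8.32, 8.79 and 8.13 in renal vesicles, and 2.85 on each collecting duct array. The 9 nephron arrays overlapped each other and all lay above those of collecting duct. Lsp1 was at least 15.3-fold higher in single S-shaped bodies (5.79 ± 0.55, limma adjusted p = 0.000167), at least 10.6-fold higher in pooled S-shaped bodies (5.26 ± 0.22, limma adjusted p = 5.58e-08) and at least 13.1-fold higher in renal vesicles (5.56 ± 0.22, limma adjusted p = 7.33e-08) than in collecting duct. Without single S-shaped body replicate 5 the bound for single S-shaped bodies was 24.8-fold. Single against pooled S-shaped bodies (0.53 ± 0.52, limma adjusted p = 0.633) and pooled S-shaped bodies against renal vesicles (-0.30 ± 0.22, limma adjusted p = 0.326) did not pass.

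The unique Lsp1 probe set, 104093_at, also had no signal in collecting duct. Its levels were 7.30, 7.02 and 2.85 in single S-shaped bodies, 5.70, 5.68 and 6.38 in the pooled S-shaped bodies, 6.40, 7.74 and 6.50 in renal vesicles, and 2.85 on each collecting duct array. Single S-shaped body replicate 5, the one with the highest Ctss, had no signal here and the lowest nephron level by the other Lsp1 probe set. Lsp1 was at least 4.53-fold higher in renal vesicles (4.03 ± 0.36, limma adjusted p = 1.73e-05) and at least 2.33-fold higher in pooled S-shaped bodies (3.07 ± 0.36, limma adjusted p = 6.93e-05) than in collecting duct. In single S-shaped bodies it was at least 2.03-fold higher than in collecting duct, which did not pass (limma adjusted p = 0.0666). The bound was 1.18-fold without single S-shaped body replicate 3, 1.29-fold without replicate 4 and 5.49-fold without replicate 5. That comparison passed without replicate 5 (limma adjusted p = 0.000334) and with all 12 arrays in 1 fit (0.0183). Pooled S-shaped bodies were below renal vesicles by this probe set with no overlap, at -0.96 ± 0.36 (limma adjusted p = 0.0605). That difference passed without renal vesicle replicate 2 (limma adjusted p = 0.0396), without pooled S-shaped body replicate 3 (0.0466) and with a pseudocount equal to the median (0.0479). With the median as the added constant, the changes of Lsp1 in pooled S-shaped bodies and renal vesicles against collecting duct were 3.37 and 3.65 by 161914_s_at and 1.52 and 2.29 by 104093_at. The correlation of the Lsp1 probe sets over the 12 arrays was 0.88.

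The comparisons share arrays, so their counts are given side by side and not set against each other. By the probe set of highest mean, 4 of the 7 genes entered the fit of 9 arrays and 5 entered the fits of 6. Renal vesicles against collecting duct had 1 gene higher (Lsp1) and 1 lower (Laptm5), where 23.9% of all probe sets were called (12.3% higher and 11.6% lower). Pooled S-shaped bodies against collecting duct had 3 genes higher (Ctss, Csf1r and Lsp1) and 0 lower, where 38.2% of all probe sets were called (18.2% higher and 20.0% lower). Pooled S-shaped bodies against renal vesicles had 3 genes higher (Ctss, Laptm5 and Csf1r) and 0 lower, where 36.7% of all were called (17.5% higher and 19.2% lower). Single against pooled S-shaped bodies had 0 of 5 called, where 0.397% of all were called (0.247% higher and 0.15% lower), so few calls were made of any kind. By these probe sets 0 of 5 had an unadjusted limma p under 0.05, but Laptm5 by its unique probe set was lower in single S-shaped bodies with an unadjusted limma p of 0.000539 (limma adjusted p = 0.0651). Single S-shaped bodies against collecting duct had 2 of 5 higher (Csf1r and Lsp1) and 0 lower, where 33.8% of all were called (16.0% higher and 17.9% lower). The median log2 changes of the tested genes in these 5 comparisons were 0.19, 2.40, 2.00, 0.11 and 1.31, beside -0.02, -0.07, -0.03, -0.04 and -0.07 over all tested probe sets. The gene medians cover only the 4 or 5 that passed the filter, without Fcer1g and Cd68 and, in the fit of 9 arrays, Tyrobp. In that fit Ctss was above background in pooled S-shaped bodies alone, so its place among the tested genes rests largely on that group. The medians therefore do not describe the 7 genes as a set.

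**Figure D3:**
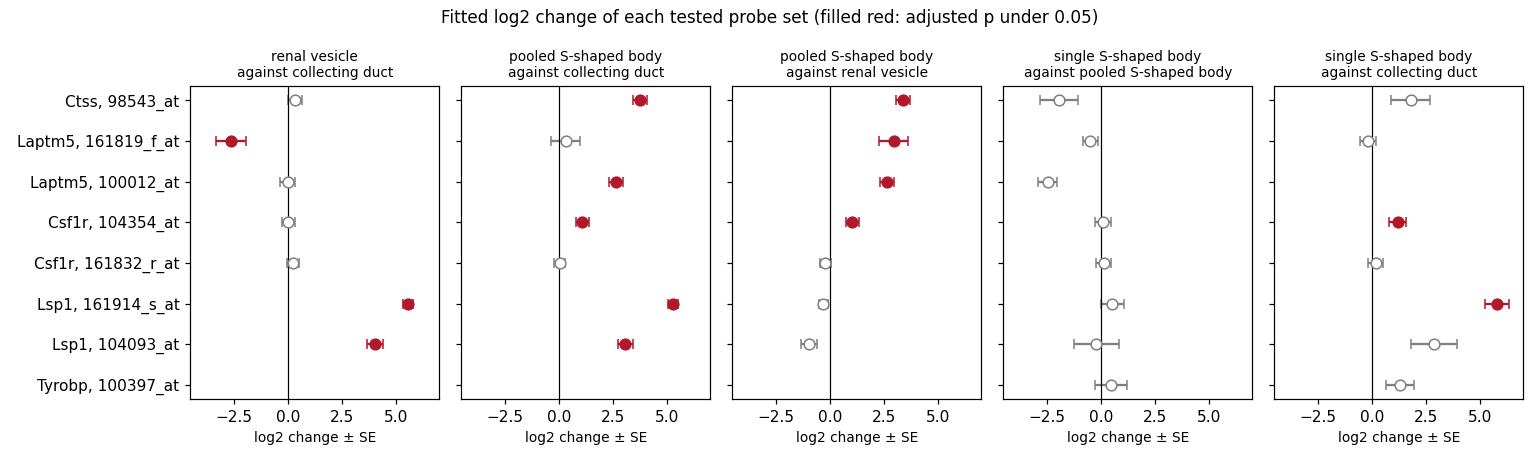
Fitted log2 change with its standard error for each tested probe set in the 5 comparisons, the structure named first minus the structure named second. Filled red points have a limma adjusted p under 0.05. Fitted Lsp1 changes lay between 2.87 and 5.79 against collecting duct, and those of Ctss in pooled S-shaped bodies were 3.73 against collecting duct and 3.38 against renal vesicles.

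Other receptors of macrophages ranged from no signal to signal on every array. Of 14 with a probe set, 3 were above background on 12 of 12 arrays (Cd14, Cx3cr1 and Fcgr1) and 3 on 10 of 12 (Fcgr3, Msr1 and Cd86). Another 6 were above background on 0 of 12, among them Adgre1 (F4/80), Itgam (CD11b) and Mrc1. Cd14, a receptor for bacterial lipopolysaccharide, was lower in pooled S-shaped bodies (-1.29 ± 0.20, limma adjusted p = 0.000498) and in renal vesicles (-1.42 ± 0.20, limma adjusted p = 0.000535) than in collecting duct. Adgre1 had levels of at most 3.44 and Itgam of at most 3.28 on any array. Pooled S-shaped bodies against renal vesicles had 17.5% of all probe sets called higher and 19.2% lower. Of 8 tested receptors, 1 was higher there and 2 were lower (median 0.15). Cd36, a scavenger receptor also made by vessels, was the one that was higher (limma adjusted p = 0.0191), but it was above background on 1 of 3 pooled S-shaped body arrays and none of renal vesicle, so no fold is given. Msr1, another scavenger receptor, was lower there (-1.14 ± 0.41, limma adjusted p = 0.0475). Cd83, a membrane protein of mature dendritic cells, had a pattern like that of Lsp1, with no signal in collecting duct. It was at least 1.56-fold higher in single S-shaped bodies, 3.19-fold in pooled S-shaped bodies and 5.11-fold in renal vesicles (limma adjusted p = 0.00087, 5.95e-07 and 2.78e-07).

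Among 16 measured macrophage products, Aif1 (Iba1), C1qa and C1qc were above background on 0 of 12 arrays. Against renal vesicles, pooled S-shaped bodies had 4 of 9 tested products higher and 0 lower (median 0.32). Over all probe sets 17.5% were called higher and 19.2% lower in that comparison. Mpeg1, a pore-forming protein of macrophages, was at least 1.08-fold higher there (1.62 ± 0.38, limma adjusted p = 0.00659), with signal on 2 of 3 arrays. Ccl3, a chemokine, was at least 1.70-fold higher (1.13 ± 0.26, limma adjusted p = 0.00585). C1qb, a chain of the first complement component, was higher by 1.36 ± 0.33 (limma adjusted p = 0.00841), by a probe set chosen under relaxed rules. Lgals3, a lectin of macrophages that epithelia also make, went the other way. It was above background on no nephron array, with levels of 8.36, 8.13 and 8.49 in collecting duct. That made it at least 9.74-fold lower in single S-shaped bodies, 12.7-fold lower in pooled S-shaped bodies and 13.7-fold lower in renal vesicles (limma adjusted p = 1.36e-05, 6.13e-08 and 1.29e-07).

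Genes that act with Csf1r were called in both directions. Its ligand Csf1 was above background on all 12 arrays, and it was lower than in collecting duct in pooled S-shaped bodies (-1.70 ± 0.27, limma adjusted p = 0.000481) and in single S-shaped bodies (-1.07 ± 0.33, limma adjusted p = 0.0361). In renal vesicles, too, Csf1 was lower than in collecting duct (-0.81 ± 0.27, limma adjusted p = 0.0489). Csf1 was also lower in pooled S-shaped bodies than in renal vesicles (-0.89 ± 0.27, limma adjusted p = 0.0222). Of 10 tested genes of Csf1r and ITAM signalling, 0 were higher and 4 lower in renal vesicles than in collecting duct (median -0.48). Over all probe sets 12.3% were higher and 11.6% lower there. In pooled S-shaped bodies 1 was higher and 3 were lower than in collecting duct (median -0.54), beside 18.2% and 20.0% of all probe sets. Against renal vesicles 2 were higher and 2 lower (median 0.02), beside 17.5% and 19.2% of all probe sets. Lcp2 (SLP-76), an adaptor downstream of Syk, was the one above collecting duct, at least 2.98-fold higher in single S-shaped bodies (limma adjusted p = 0.00133) and at least 2.18-fold higher in pooled S-shaped bodies (limma adjusted p = 0.00123). Syk itself was lower in pooled S-shaped bodies than in renal vesicles (-0.81 ± 0.18, limma adjusted p = 0.00548). Of 6 tested myeloid transcription factors, 1 was higher and 1 lower in pooled S-shaped bodies than in collecting duct (median 0.02), and 1 was higher and 1 lower than in renal vesicles (median -0.10). The lower one was Gfi1, a repressor that acts in granulocyte development, both against collecting duct (-2.49 ± 0.39, limma adjusted p = 0.000534) and against renal vesicles (-2.30 ± 0.39, limma adjusted p = 0.00105). Irf8 was higher in single S-shaped bodies, pooled S-shaped bodies and renal vesicles than in collecting duct, by 1.03 ± 0.30, 0.91 ± 0.21 and 0.64 ± 0.21 (limma adjusted p = 0.0276, 0.00556 and 0.047). Spi1 was above background on 7 of 12 arrays, spread over all 4 groups, and was not called in any comparison.

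Of 16 genes shared by leukocytes, 7 were above background on 0 of 12 arrays, including Ptprc (CD45), Itgb2, Cd53 and Hcls1. Ptprc had levels of at most 4.57. Lcp1 (L-plastin), an actin-bundling protein, was high in pooled S-shaped bodies, as Ctss was. Its levels were 2.85, 6.18 and 7.19 in single S-shaped bodies, 6.99, 7.50 and 7.67 in the pooled S-shaped bodies, 2.85, 2.85 and 3.30 in renal vesicles, and 4.80, 5.15 and 3.63 in collecting duct. Lcp1 was at least 7.15-fold higher in pooled S-shaped bodies than in renal vesicles (limma adjusted p = 1.83e-05) and higher than in collecting duct by 2.86 ± 0.39 (limma adjusted p = 0.000176). In pooled S-shaped bodies against renal vesicles, 3 of 10 tested pan-leukocyte genes were higher (Lcp1, Lst1 and Selplg) and 0 were lower (median 0.06). Over all probe sets 17.5% were higher and 19.2% lower there. Lst1 was above background on 1 of 3 pooled S-shaped body arrays and on none of renal vesicle or collecting duct, so no fold is given for it. Against collecting duct, pooled S-shaped bodies had 2 higher (Lcp1 and Lst1) and 2 lower (median 0.15), and renal vesicles had 0 higher and 3 lower (median 0.09). Those lower in pooled S-shaped bodies were Arhgdib (-1.52 ± 0.23, limma adjusted p = 0.000334), and the GTPase Rac2 (-0.99 ± 0.22, limma adjusted p = 0.0041), both above background on 12 of 12 arrays. Lymphoid markers had 6 of 11 above background on 0 of 12 arrays, and granulocyte and mast cell markers 5 of 12. Broad lysosomal genes, which most cells use, were above background on all 12 arrays for 9 of 14. They had 2 higher and 2 lower in pooled S-shaped bodies than in renal vesicles (median -0.04).

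Markers of blood vessels were also highest in S-shaped bodies, in the single ones as in the pools. Of 12 endothelial markers, 10 were above background on all 3 single S-shaped body arrays, 12 on all 3 pooled S-shaped body arrays, 5 on all 3 renal vesicle arrays and 1 on all 3 collecting duct arrays. Their summed normalized intensity was 6870 to 9410 in single S-shaped bodies, 7540 to 9000 in the pooled S-shaped bodies, 1540 to 3220 in renal vesicles and 93.2 to 173 in collecting duct. Endothelial markers were higher in pooled S-shaped bodies for 12 of 12 against collecting duct and 10 of 12 against renal vesicles, and in single S-shaped bodies for 11 of 12 against collecting duct. Kdr had levels of 8.93, 7.90 and 7.60 in pooled S-shaped bodies and of 4.60, 4.90 and 4.51 in renal vesicles. Red blood cell markers summed to 1340 to 4910 in single S-shaped bodies, 5410 to 7100 in the pooled S-shaped bodies, 216 to 962 in renal vesicles and 238 to 262 in collecting duct, and 5 of 7 tested were higher in pooled S-shaped bodies than in either pooled renal vesicles or collecting duct. Stroma markers were called higher for 6 of 6 in each nephron structure against collecting duct, and summed to 3450 to 4460 in single S-shaped bodies, 2410 to 3350 in the pooled S-shaped bodies, 341 to 1460 in renal vesicles and 12.7 to 34.3 in collecting duct. The macrophage surface list summed to 414 to 510, 381 to 389, 387 to 476 and 398 to 491 in the same order of groups, with the pooled S-shaped bodies under the single ones and collecting duct and overlapping renal vesicles. The part of vessels, blood and stroma in the values of the 7 genes was not tested.

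**Figure D4:**
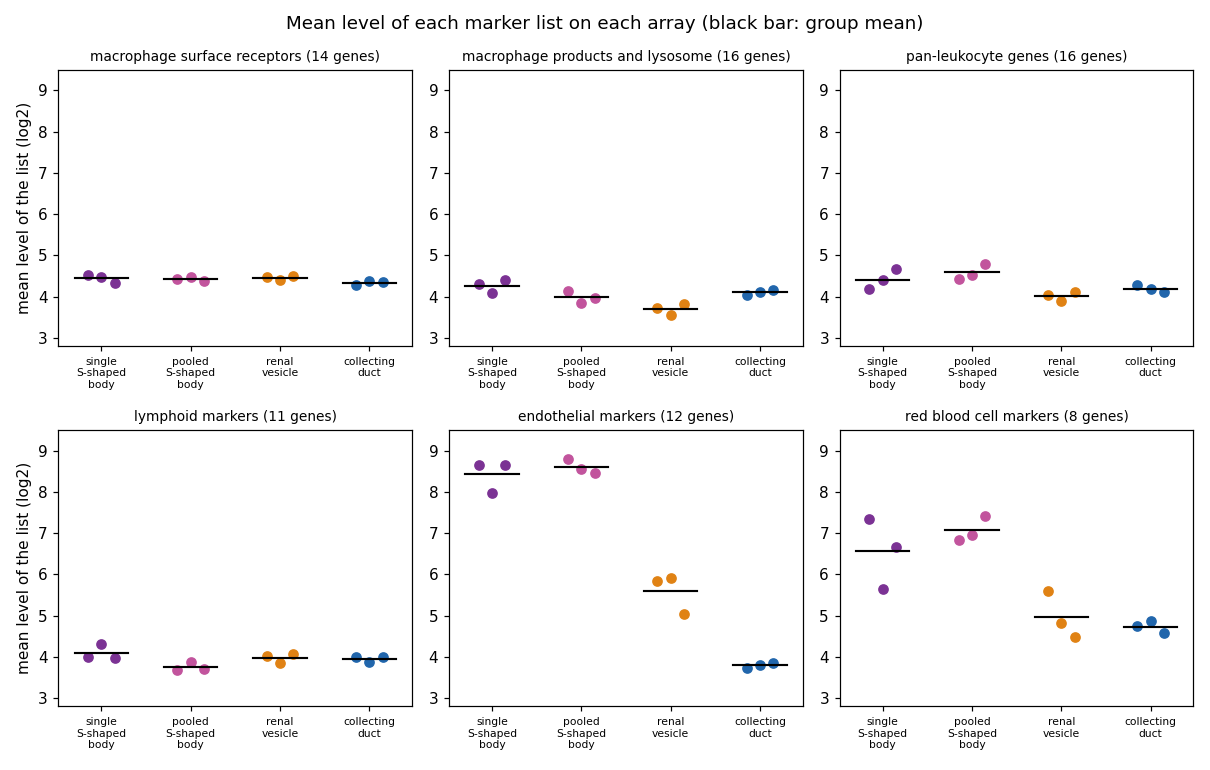
Mean level of 6 marker lists on each array (log2 of normalized intensity plus 7.22, averaged over the genes with a probe set, 3 arrays a group, black bars for group means). The endothelial list lay between 7.96 and 8.80 in single and pooled S-shaped bodies, which overlapped, between 5.04 and 5.91 in renal vesicles and between 3.72 and 3.85 in collecting duct, while the macrophage surface list stayed between 4.29 and 4.52 on all 12 arrays.

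Among the 7 genes, the level of Ctss had a correlation over the 12 arrays of 0.80 with Laptm5 by 100012_at and 0.41 by 161819_f_at. It was 0.66 with Csf1r by 104354_at and -0.28 by 161832_r_at, and 0.37 with Lsp1 by 161914_s_at and 0.03 by 104093_at. With Tyrobp it was 0.68, with Fcer1g (160692_at) 0.12, and with Cd68 0.00 (103016_s_at) and -0.27 (162173_i_at). These describe 12 arrays that fall into 4 groups. The mean profile of Ctss, Laptm5, Csf1r, Lsp1 and Tyrobp, each standardized, was most like those of Itgb5 (r = 0.97), Wsb2 (0.96), Mllt11 (0.95), Lats2 (0.94) and Acta2 (0.94) over the same 12 arrays. Acta2, smooth muscle actin, had levels of 7.96, 8.38 and 9.09 in single S-shaped bodies, 8.73, 8.66 and 8.33 in the pooled S-shaped bodies, 2.85, 4.55 and 3.22 in renal vesicles, and 2.85 on each collecting duct array. None of these 5 genes is on the leukocyte lists.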

How the data were processed

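Total RNA was extracted with TRIzol, amplified with the Arcturus kit and labelled with biotin, per the labels' protocols. The authors deposited 1 linear intensity per probe set and array, negative values included. The submitters' processing notes name GCOS, while how probes were summarised and scaled is not given in the sources used here. Array medians differed by up to 17.8 times, so quantile normalization was applied to the 12 arrays, leaving aside 66 controls. Values under 0 were set to 0, 7.22 (25% of the median) was added and log2 taken, which understates changes of dim genes. A fit kept the probe sets whose mean reached the 25th percentile, which were 9316.

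The tests were run in limma 3.58.1 under R 4.3.3 (mean-variance trend, two-sided, Benjamini-Hochberg over all tested probe sets). Collecting duct, renal vesicles and pooled S-shaped bodies shared a fit of 9 arrays, and each comparison of single S-shaped bodies used its own 6. No arrays were identical (0 pairs). The array annotation gave 10833 probe sets 1 symbol, 396 several and 1193 none. A gene of a list was represented by its probe set of highest mean. Where a group was above background on 0 arrays, a bound on the fold is given, from the mean of the brighter group against the lowest level above background on each dim array or the probe set's own level, whichever was higher.

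The members and lists were chosen with earlier results of these data known. Named were all members, at most 3 called genes of largest change per leukocyte, lysosome, signalling or transcription factor list and comparison (a part is printed), and the 5 genes most like the members' mean profile. Outside this rule, further genes of these lists were named for signal on every array or on none, such as Cx3cr1 and Ptprc. Fcgr3, Cd86, Spi1 and Rac2 were also named outside it. Of the other lists, defining markers were named. Same-numbered arrays did not deviate together: 0 of 11 pairs had a correlation over 0.1. The fit was tested on simulated data. Alternatives were other scalings, pseudocounts, filters, variance models and sets of arrays, the replicate block and leaving out each array, and, added after seeing the data, the unique probe set per gene and other background levels.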

Additional observations from a re-analysis of the deposited data

How the results depend on the processing

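Of 36 log2 changes of the tested probe sets of the 7 genes, the 14 that were called kept their direction under every alternative run, and 6 that were not called took both signs. Recomputed changes kept their side of the threshold in 542 cases, gained a call in 10 and lost one in 15. The cause of these was not tested.

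In renal vesicles against collecting duct, 2 members were called, against 1 with no filter, 1 by the unique probe set of each gene and 1 to 2 when each replicate was left out in turn. In single S-shaped bodies against collecting duct, 2 members were called, against 1 with no filter, 1 by the unique probe set and 1 to 3 when each replicate was left out (3 without single S-shaped body replicate 3). Single against pooled S-shaped bodies had 37 probe sets called over the array, 146 with scaling to the 75th percentile, 121 with scaling to the trimmed mean, 19 with a filter at the 50th percentile (fewer probe sets tested), 424 with all 12 arrays in 1 fit, and 1 to 72 when each replicate was left out, of which 72 was without single S-shaped body replicate 5 and 1 without pooled S-shaped body replicate 2.

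The replicate number as a block left 1383 probe sets called in renal vesicles against collecting duct, where 2225 were called without it. It gave 3346 in pooled S-shaped bodies against collecting duct and 2448 in pooled S-shaped bodies against renal vesicles, where 3560 and 3423 were called without it. Csf1r in pooled S-shaped bodies against renal vesicles was the 1 member change that lost its call under the block (limma adjusted p = 0.144). Laptm5 (161819_f_at) in renal vesicles against collecting duct came to -1.72 under it. Same-numbered arrays had correlations of their deviations between -0.079 and 0.042, so no shared deviation was seen. That cannot tell whether same-numbered samples came from the same embryo, which the labels do not name. No paired fit was possible for single S-shaped bodies because they share fewer than 2 replicate numbers with pooled S-shaped bodies and with collecting duct. Signal over background limits Tyrobp, Fcer1g and Cd68, for which a low level could not be told from none.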
